A study of Mus musculus with 12 samples.

Results

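The pyruvate dehydrogenase complex and the mitochondrial pyruvate carrier were examined in the soleus, an oxidative muscle of the mouse calf with many slow fibres. The genes were chosen by symbol, as the 4 core subunit genes Pdha1, Pdhb, Dlat and Pdhx, the kinases Pdk1 and Pdk2, the phosphatases Pdp1 and Pdp2, and the carrier subunits Mpc1 and Mpc2. All 10 were found among the 28997 genes of the tables, and all 10 had a total of at least 100 normalised reads. RNA came from 12 mice in 4 groups of 3, which were Cdh5Cre-NOX1CKO mice on a high fat diet, Cdh5Cre-NOX1CKO mice on chow, Cdh5cre-WT mice on a high fat diet and Cdh5cre-WT mice on chow, each fed for 8 weeks. All groups carried a Cre driven by Cdh5, which is active in endothelial cells, so that the conditional loss of the NADPH oxidase gene Nox1 was aimed at a minor cell type of whole muscle. The series title places the question in obesity, endothelial NOX1 and the mitochondria of muscle. The deposited data were 4 tables of group comparisons in which the groups bear the codes G1 to G4. The labels do not say which code is which genotype or diet, and the codes alone are used here.

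The complex stands at the entry of carbohydrate carbon into the mitochondrial matrix. The carrier, a heterodimer of MPC1 and MPC2, brings pyruvate across the inner membrane, and the complex then turns it into acetyl-CoA, carbon dioxide and NADH in a step that mammals cannot reverse. Kinases inactivate the complex by phosphorylating its alpha subunit and phosphatases restore it, and in skeletal muscle this switch sets how much glucose is burned when fatty acids are plentiful.

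Each table held 1 value per gene and none per mouse, so levels per mouse, means with SD and leave-one-out values could not be given. Group levels were solved from the total of each gene over the 12 libraries and the log2 fold changes, on the assumption that a fold change is the ratio of group means, and are given as normalised reads per library (the mean of 3 mice) or, between genes, as RPKM, which scales reads by transcript length and by depth. The mean depth was 24905255 normalised reads per library. Muscle identity was clear from Acta1, Ckm, Des, Mb, Myh7 and Ttn, which summed to between 59648 and 65901 RPM (reads scaled to depth) in the 4 groups. Nox1 totalled 25.2 normalised reads over the 12 libraries in the authors' deposited tables, too few to check the group labels. Slow fibre markers, 10 of 10 measured, summed to 26960 RPM in G4, 25005 in G3, 31760 in G2 and 24927 in G1, and fast fibre markers, 12 of 12, to 46315, 44389, 50596 and 53995 in the same order. Adipocyte markers, 10 of 10, summed to 298, 259, 225 and 291 RPM in that order, and macrophage markers, 9 of 9, to 69.6, 85.3, 70.3 and 89.6. Endothelial markers, 11 of 11, for the cells in which the Cre is active, summed to 764, 699, 644 and 685 RPM, erythroid markers, 5 of 5, to 148, 170, 112 and 179, and Schwann cell markers, 6 of 6, to 84.3, 88.7, 80.9 and 97.2. G2 was thus the lowest group for endothelial, adipocyte, erythroid and Schwann cell markers. In G4 against G2 the log2 of all 11 endothelial markers was positive, with a median of 0.19, and 1 passed the test (adjusted p under 0.05), Eng, which is named after its value was seen. Eng had 0.66 with an implied standard error of 0.18 (adjusted p = 0.0283, authors' deposited table). The implied standard error is the log2 value divided by the normal deviate of its p-value. In G4 against G2, 8 of 10 adipocyte markers were positive (median 0.53) and 3 passed, against 1.38% of genes tested. Those that passed in the authors' deposited table were Lipe (adjusted p = 7.85e-06), Cidea (0.0138) and Fabp4 (0.0254), named after their values were seen. Adipoq, Lep and Plin1 were positive and did not pass, and Retn (-0.64) and Cfd (-0.31) were negative. Fabp4 alone held 3927 of the 5604 adipocyte marker reads in G2. Of the slow and fast fibre markers 0 were positive there (medians -0.21 and -0.17), and 0 passed. All 10 slow fibre markers were positive in G2 against G1 (median 0.29), and 0 passed. For fast fibre markers, 1 of 12 was positive in G3 against G1 (median -0.35), and 0 passed. None of these markers had a total under 100 reads. Their part in the results was not tested, and fewer cells of a type cannot be told apart from less RNA per cell in bulk muscle.

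Of the 10 genes, 9 had a start site among the RefSeq promoter windows of build GRCm38.p6, and the 250 bases before the start are shown for 3 of them. These are printed from 5′ to 3′ on the gene's own strand, with CCAAT boxes (CCAAT, or ATTGG on the other strand) and E-boxes (CACGTG) in capitals, because they show a repeated element in the promoter of a core subunit and both motifs in the promoters of a kinase and a phosphatase, which act in opposite directions. The Pdhb window lies at chr14:8172993-8173242 on the minus strand, that of Pdk2 at chr11:95041372-95041621 on the minus strand and that of Pdp2 at chr8:104591222-104591471 on the plus strand.
Pdhb: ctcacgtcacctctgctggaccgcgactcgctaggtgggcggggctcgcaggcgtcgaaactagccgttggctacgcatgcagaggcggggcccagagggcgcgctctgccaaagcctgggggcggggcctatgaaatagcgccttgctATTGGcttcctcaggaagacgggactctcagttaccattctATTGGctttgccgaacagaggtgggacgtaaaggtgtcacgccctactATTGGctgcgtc
Pdk2: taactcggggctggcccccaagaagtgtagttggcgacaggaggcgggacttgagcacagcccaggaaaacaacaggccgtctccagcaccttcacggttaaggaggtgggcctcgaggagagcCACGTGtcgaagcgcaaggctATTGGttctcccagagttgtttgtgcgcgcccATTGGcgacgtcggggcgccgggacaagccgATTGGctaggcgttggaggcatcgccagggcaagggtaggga
Pdp2: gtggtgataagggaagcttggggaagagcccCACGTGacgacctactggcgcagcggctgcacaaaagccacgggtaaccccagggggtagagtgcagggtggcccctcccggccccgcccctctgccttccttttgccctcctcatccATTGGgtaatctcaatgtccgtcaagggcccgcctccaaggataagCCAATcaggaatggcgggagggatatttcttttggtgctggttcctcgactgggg

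The Pdhb window held 3 CCAAT boxes, with their first bases at -101, -60 and -12 from the start, and all 3 lay within the same 9 letters CTATTGGCT. Both strands were searched, and 190 of 32851 mouse promoter windows of this length (0.578%) held these 9 letters at least once. The Pdhb window was the 1 window with 3 copies, an element chosen after the sequence had been seen. The Pdk2 window shown also held 3 CCAAT boxes, and 2.79% of all windows held at least 3. Pdk1, Pdk2 and Mpc1 each had a second start site, and the windows there held neither motif. The bases checked after the second start of Pdk1 and of Pdk2 were not found in a protein-coding transcript of the gene. CCAAT boxes were also found in Pdp2, Mpc1 and Mpc2, and 33.8% of all windows held at least 1. E-boxes were found at -126 in Pdk2 and at -219 in Pdp2 and in none of the other windows of the 9 genes, whereas 6.02% of all windows held one. Both windows held CCAAT boxes as well, a pairing seen in 1.98% of all windows, but their number, strand and distance from the E-box differed. The letters AAGGTCA, an oestrogen-related receptor half-site, and ACGTGC, a hypoxia motif, were in none of the windows of these genes. They were in 4.08% and 4.92% of all windows, so their absence from so few windows is uninformative. Only these exact letters were searched, and the shorter ACGTG lies within the E-boxes of Pdk2 and Pdp2. The start sites are those of RefSeq, and some lie inside the gene as GENCODE M21 places it. The Pdhb gene reaches 8173025 there, so the box at -12 lies within the annotated gene. The Mpc1 and Mpc2 windows lie wholly within the annotated genes. The matches describe the letters only.

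The 4 genes of the catalytic core did not pass the test in any comparison, and their levels lay close together across the groups. Pdha1 (chromosome X, 160122209 to 160138413, GRCm38), the alpha subunit of the decarboxylating E1 enzyme and the target of the kinases, had 22457 normalised reads per library in G4, 21845 in G3, 20953 in G2 and 21834 in G1. Pdhb (chromosome 14, 8165996 to 8173025), the beta subunit of E1, had 5091 reads in G4, 4958 in G3, 4928 in G2 and 5092 in G1. The highest group of each gene exceeded its lowest by 1.07-fold for Pdha1 and 1.03-fold for Pdhb. Dlat (chromosome 9, 50634633 to 50659780), the lipoyl-bearing acetyltransferase E2 that forms the scaffold, had 5978 reads in G4, 6024 in G3, 5640 in G2 and 5984 in G1. Pdhx (chromosome 2, 103021075 to 103073513), which anchors the E3 enzyme to that scaffold, had 1999.5 reads in G4, 2107 in G3, 1907 in G2 and 2032 in G1. G2 was the lowest group for all 4 core genes, by margins inside the intervals of the comparisons given below. It was also lowest for the endothelial, adipocyte, erythroid and Schwann cell markers. Macrophage markers were instead lowest in G4, and slow fibre markers were highest in G2. Whether the marker levels bear on the core genes was not tested.

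In G4 against G2 all 4 core genes had positive log2 fold changes in the authors' deposited table, with values of 0.10 for Pdha1, 0.05 for Pdhb, 0.08 for Dlat and 0.07 for Pdhx, and implied standard errors of 0.062 to 0.078. In G2 against G1, which shares G2, all 4 were negative in the authors' deposited table, at -0.06, -0.05, -0.09 and -0.09. Neither set of signs is a test, and the smallest p-values were 0.201 in G4 against G2 and 0.217 in G2 against G1. Across the 16 values of the 4 genes in the 4 comparisons, the 95% intervals ran from -0.24 to 0.25 on the log2 scale, and the bound furthest from 0 corresponds to a 1.19-fold difference.

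**Figure D1:**
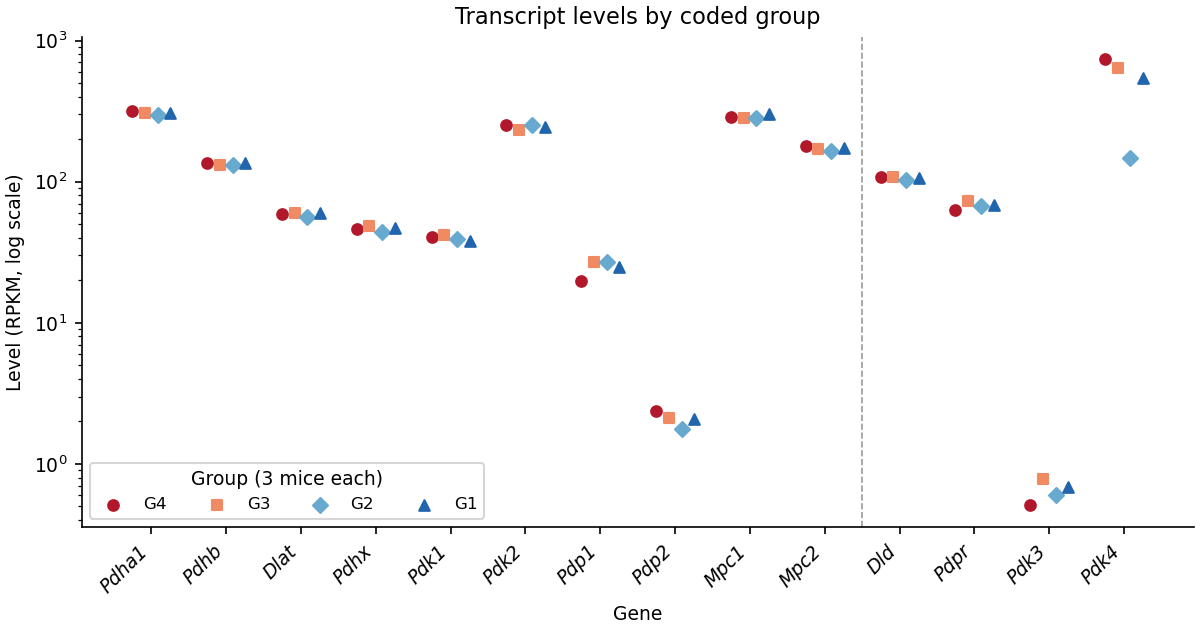
Level of each gene in RPKM on a log scale in groups G4, G3, G2 and G1 (each point is 1 group of 3 mice, and no error per group can be had), with the 10 complex and carrier genes left of the dashed line and other genes of the complex right of it. The 4 points of each core and carrier gene nearly coincide, while Pdp1 is lowest in G4, Pdp2 is lowest in G2 and Pdk4 is far lower in G2 than in the other groups.

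Per length, transcripts of the core were not in the proportions of 1 to 1. Pdha1 averaged 307 RPKM and Pdhb 133, a ratio of 2.31 that lay between 2.26 and 2.34 in the 4 groups. Dlat averaged 58.8 and Pdhx 46.2, a ratio of 1.27. Dld, the E3 enzyme that the complex shares with the other 2-oxoacid dehydrogenases, averaged 106. These ratios depend on the reads that were assigned to near-identical copies. Gm6123, a processed pseudogene with 97.0% identity to Pdhb over 1079 bases, was assigned 19403 normalised reads in all, between 23.9% and 25.0% of the reads of the pair in each group. With its level, scaled by its own length of 1069 bases, added to that of Pdhb the ratio of Pdha1 to Pdhb was 1.58. The same reads scaled by the greater length of Pdhb would lower the ratio less. For Pdha1, 4930519F09Rik (90.1% identity over 1118 bases) held between 3.34% and 3.49% of the pair's reads. The levels of Pdhb and Pdha1 are uncertain to this extent, and summing each with its copy kept the sign of the fold change in all 4 comparisons.

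The kinases Pdk1 and Pdk2, which phosphorylate the alpha subunit, did not pass the test in any comparison either. Pdk2 (chromosome 11, 95026258 to 95041354), a widely expressed isoform, had 14048 reads in G4, 12949 in G3, 14216 in G2 and 13691 in G1. Pdk1 (chromosome 2, 71873224 to 71903858), known as a target of the hypoxia-inducible factor, had 5250 reads in G4, 5407 in G3, 5069 in G2 and 4929 in G1. Per length Pdk2 stood 6.14-fold above Pdk1, and between 5.53-fold and 6.47-fold in the single groups. The value of Pdk1 furthest from 0 was 0.13 in G3 against G1 in the authors' deposited table, with an implied standard error of 0.074 and p = 0.0725 (adjusted p = 1.0). For Pdk2 it was 0.12 in G4 against G3 in the authors' deposited table, with 0.11 and p = 0.283. The 95% intervals of both genes over the 4 comparisons ran from -0.29 to 0.33, or at most 1.26-fold.

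The other kinases set the Pdk1 and Pdk2 values in context. Pdk4, the isoform induced by fasting and fatty acids, was measured at 37389 reads in G4, 32512 in G3, 7459 in G2 and 27653 in G1. It rose by 2.33 in G4 against G2 with an implied standard error of 0.56 (adjusted p = 0.00709) and had -1.89 in G2 against G1 (95% interval -3.00 to -0.79, p = 0.000799, adjusted p = 1.0), both in the authors' deposited tables. Its interaction, the difference between G4 against G2 and G3 against G1, was 2.09 with an interval of 0.53 to 3.65 and did not pass (Benjamini-Hochberg adjusted p = 0.974 over all genes tested). Pdk3 was scarce, with 27.0, 41.2, 31.7 and 36.2 reads in G4, G3, G2 and G1. As a share of the 4 kinases' summed level per length, Pdk4 made up 71.7% in G4, 70.1% in G3, 33.4% in G2 and 65.9% in G1, and Pdk2 24.3%, 25.2%, 57.5% and 29.5% in the same order. Pdk2 was thus the most abundant kinase transcript in G2 and Pdk4 in the other groups, while the level of Pdk2 itself varied by 1.10-fold. The implied standard error of Pdk4 was 6.14 times the median of 340 genes of like total, so its shares rest on a gene with a wide error. They also depend on the transcript length. With the longest transcript as the length, the average level of Pdk4 was 303 RPKM in place of 520, while Pdk1, Pdk2 and Pdk3 did not change.

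**Figure D2:**
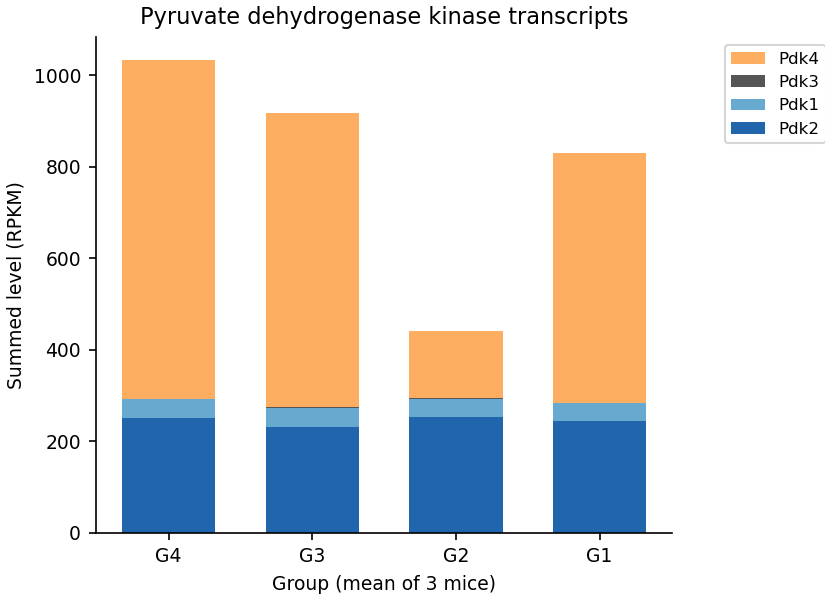
Summed level of the 4 kinase transcripts in RPKM, stacked by gene, in G4, G3, G2 and G1 (means of 3 mice, no error can be had). The Pdk1 and Pdk2 layers have nearly the same height in all groups, and the Pdk4 layer is 740 in G4, 644 in G3, 148 in G2 and 547 in G1.

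The phosphatases had the largest values among the 10 genes, in opposite directions, and neither passed the test. Pdp1 (chromosome 4, 11958184 to 11966452), the calcium-stimulated catalytic subunit that predominates in muscle, had 1347 reads in G4, 1818 in G3, 1835 in G2 and 1692 in G1. G4 stood below the other groups, which lay within 1.08-fold of each other. In the authors' deposited tables Pdp1 had a log2 of -0.45 in G4 against G2 (implied standard error 0.24, p = 0.061, adjusted p = 0.575) and -0.43 in G4 against G3 (p = 0.0689, adjusted p = 1.0), whereas G3 against G1 gave 0.10. Rebuilding G2 against G1 from the other tables gave Pdp1 a log2 of 0.12 (standard error 0.24). The intervals, from -0.91 to 0.02 and from -0.90 to 0.03, hold both no difference and a level 1.86-fold lower in G4.

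Pdp2 (chromosome 8, 104591451 to 104599026), the isoform that calcium does not stimulate, had 338 reads in G4, 298 in G3, 249 in G2 and 293 in G1. Its log2 was 0.44 in the authors' deposited table of G4 against G2, with an implied standard error of 0.20, p = 0.0287 and an adjusted p of 0.430. This was the 1 value with an unadjusted p under 0.05 among 40. The other comparisons gave 0.18, 0.02 and -0.24 for G4 against G3, G3 against G1 and G2 against G1 in the authors' deposited tables. Per length Pdp1 stood above Pdp2 in every group, by 8.34-fold in G4, 12.8-fold in G3, 15.4-fold in G2 and 12.1-fold in G1. Summed over both phosphatases the level was 22.3 in G4, 28.9 in G3, 28.8 in G2 and 27.0 in G1, against 1032, 918, 442 and 831 for the 4 kinases in the same order, all in RPKM. No error could be put on these ratios, and the ratios and sums depend on the transcript lengths used for Pdk4 and Pdp1.

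The genes closest to Pdp2 in pattern were sought by Euclidean distance over the log2 fold changes of the 3 complete tables, among 9589 genes with at least 5 RPM, since no gene of the group was called and Pdp2 had the smallest p. They were Cox6a1, a cytochrome c oxidase subunit, at a distance of 0.022, Pid1 at 0.026 and Pear1 at 0.027. The pattern spans 4 group values only.

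**Figure D3:**
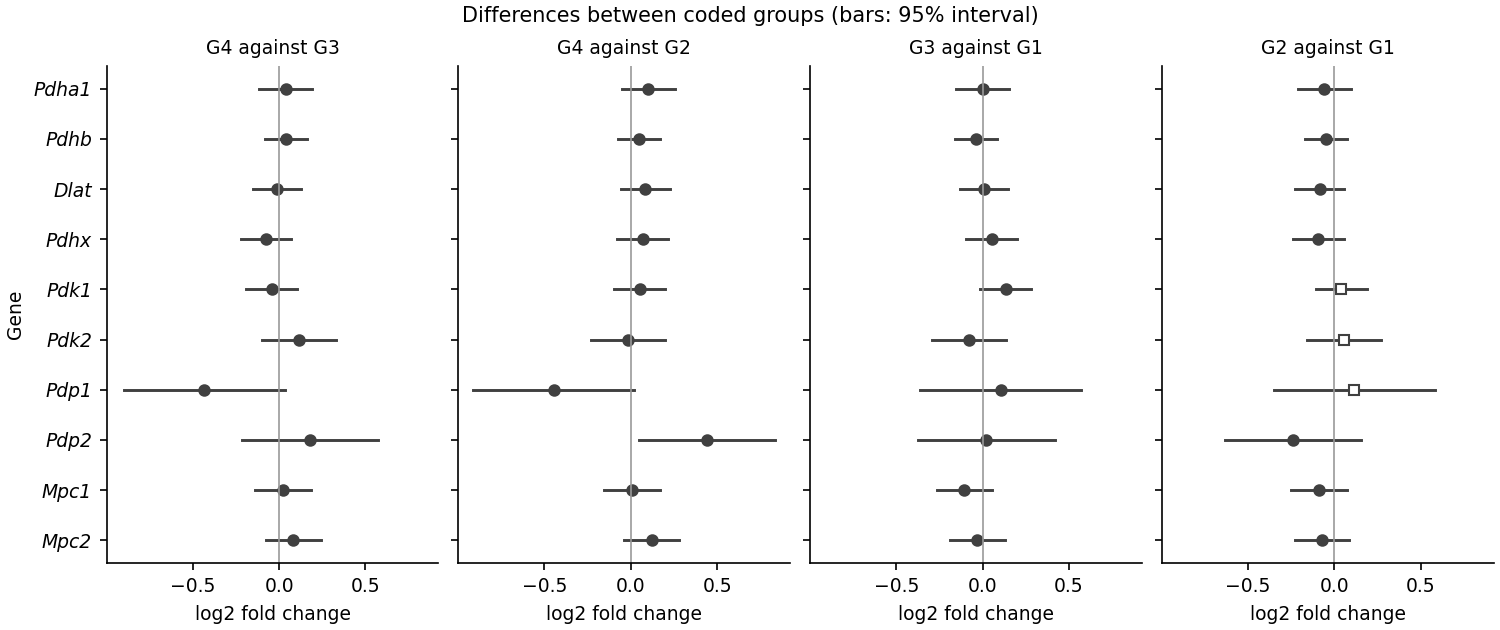
Log2 fold change of each gene with its 95% interval in the 4 comparisons (filled circles, authors' deposited values; open squares, values for G2 against G1 rebuilt from the other 3 tables). The core, kinase and carrier genes lie between -0.10 and 0.13 with short bars, and Pdp1 and Pdp2 have long bars and lie on opposite sides of 0 in every comparison but G3 against G1.

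The pyruvate carrier subunits, which act upstream of the complex, did not pass the test in any comparison. Mpc1 (chromosome 17, 8282904 to 8297661) had 5173 reads in G4, 5091 in G3, 5153 in G2 and 5475 in G1. Mpc2 (chromosome 1, 165460637 to 165481214), its obligate partner, had 4581 reads in G4, 4331 in G3, 4210 in G2 and 4425 in G1. Mpc2 had a log2 of 0.12 in the authors' deposited table of G4 against G2 (p = 0.132), and Mpc1 had -0.10 in G3 against G1 in the authors' deposited table (p = 0.203). The intervals of both genes ran from -0.27 to 0.28, or at most 1.21-fold. Per length Mpc1 averaged 288 RPKM and Mpc2 172, a ratio of 1.68. It was 3.03 with the level of the copy Mpc1-ps, scaled by its own length of 330 bases, added to Mpc1. The same reads scaled by the greater length of Mpc1 would give a lower ratio. Mpc1-ps, a pseudogene with 99.7% identity to Mpc1 over 330 bases, was assigned between 26.6% and 27.0% of the reads of the pair in each group, so the level of Mpc1 is uncertain. With both summed the log2 in G3 against G1 was -0.11.

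By level per length the order was Pdha1 (307), Mpc1 (288), Pdk2 (245), Mpc2 (172), Pdhb (133), Dlat (58.8), Pdhx (46.2), Pdk1 (40.0), Pdp1 (24.7) and Pdp2 (2.08), in RPKM. With the longest transcript as the length in place of the mean over protein-coding transcripts, Mpc1 came to 218 and stood after Pdk2, and Pdhx came to 32.2 and stood after Pdk1, so these neighbours are not ordered firmly. Pdp1 then came to 16.0. With the levels of near-identical copies added, Mpc1 came to 520.5 and stood above Pdha1 at 343, and Pdhb came to 194 and stood above Mpc2, so the order of these genes also depends on how reads were assigned to copies. Each copy was scaled by its own shorter length, so these sums exceed what the same reads would give at the length of the main gene.

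None of the 10 genes was called at an adjusted p of 0.05 in any comparison, in a dataset where few genes were. In G3 against G1, 61 of 28997 genes (0.21%) passed, by the authors' deposited table, and 0 of the 10 had an unadjusted p under 0.05, against 5.63% of 15494 genes with a total of at least 100. In G4 against G2, 200 of 14539 (1.38%) passed, by the authors' deposited table, and 1 of the 10 had an unadjusted p under 0.05 against 9.06%. In G4 against G3, 7 of 17752 (0.0394%) passed, by the authors' deposited table, and 0 of the 10 had an unadjusted p under 0.05 against 4.83%. In G2 against G1 the adjustment was made anew over deposited and rebuilt p-values together. There 1 of 15494 (0.00645%) passed, and 0 of the 10 had an unadjusted p under 0.05 against 2.35%. The tool behind the p-values is not stated in the labels or headers.

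The median log2 of the 10 genes was 0.06 in G4 against G2 with 8 positive values, 0.03 in G4 against G3 with 6, 0.01 in G3 against G1 with 6 and -0.07 in G2 against G1 with 3. The medians over the 15494 genes were 0.00 in each comparison. Whether the difference of G4 against G2 differed from that of G3 against G1 was tested as the interaction, where 0 of the 10 genes passed and 0 had an unadjusted p under 0.05, against 0.00645% and 4.12% of 15494 genes. The interaction was -0.55 for Pdp1 with a standard error of 0.34 and a 95% interval of -1.21 to 0.11. It was 0.42 for Pdp2 with a standard error of 0.28 and an interval of -0.14 to 0.98. For the other 8 genes it lay between -0.08 and 0.15.

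The 10 genes differed among themselves in how precisely their group differences were estimated, a property that the choice of genes did not use. Variation between mice and counting noise both enter this and cannot be told apart here. The implied standard error, taken as the root mean square over G3 against G1 and G4 against G2, was 0.062 for Pdhb, 0.072 for Dlat, 0.075 for Pdhx, 0.075 for Pdk1, 0.078 for Pdha1, 0.081 for Mpc2 and 0.082 for Mpc1. Each of these was below the median of up to 500 genes nearest in total, by a ratio of 0.709 for Pdhb to 0.938 for Mpc1. Pdk2 stood at 0.11, a ratio of 1.19. Pdp1 had 0.24, which was 2.49 times the median of its neighbours and above 96.6% of them, and Pdp2 had 0.20, a ratio of 1.42 and above 88.0%. Pdhx, with 24135 reads in all, and Pdp1, with 20077, had similar totals, with implied standard errors of 0.075 and 0.24.

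**Figure D4:**
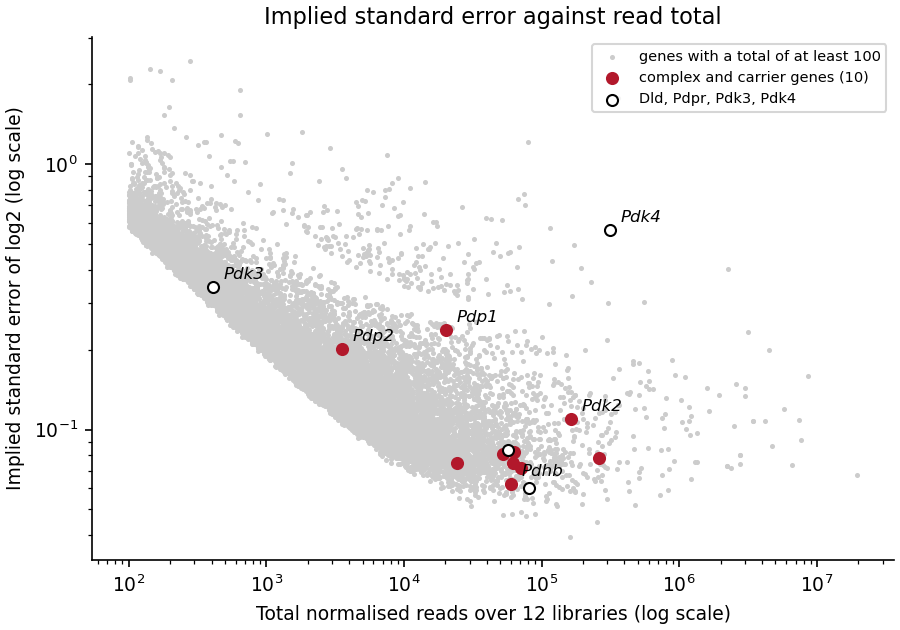
Implied standard error of the log2 fold change against the total of normalised reads, both on log scales, for genes with a total of at least 100 (grey), the 10 complex and carrier genes (red) and 4 other genes of the complex (open). Core, carrier and Pdk1 points lie in the lower part of the cloud, Pdp1 and Pdp2 in its upper part and Pdk4 far above.

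The rest of the pathway was followed in lists. Among the other genes of the complex and its regulators, 4 of 5 were measured with a total of at least 100, as Pdha2, the testis copy of the alpha subunit, totalled 26.2 reads. Of the 4, Pdk4 was the 1 call, in G4 against G2, where 1.38% of genes tested passed. Dld lay between -0.05 and 0.06 in the 4 comparisons. Pdpr, the regulatory subunit of the phosphatase, had -0.20 in G4 against G3 in the authors' deposited table, with an implied standard error of 0.084 and p = 0.018 (adjusted p = 1.0). Of 7 genes that make and attach lipoate, the cofactor of Dlat, 0 were called in any comparison, with medians between -0.09 and 0.01. Of 3 measured genes of thiamine supply, which feed the cofactor of E1, 0 were called.

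Among 11 genes of pyruvate supply and its other fates, 2 were called lower in G3 against G1, where 0.21% of genes tested passed. The same 2 were called lower in G4 against G2, where 1.38% passed. These comparisons share no group, and the list was chosen with earlier results of these data known. Pcx, the pyruvate carboxylase that makes oxaloacetate from pyruvate, fell by 0.51 in G3 against G1 (implied standard error 0.083, adjusted p = 3.00e-06) and by 0.44 in G4 against G2 (0.084, adjusted p = 8.36e-05) in the authors' deposited tables. Ldhb, the heart-type lactate dehydrogenase subunit, fell by 0.21 (adjusted p = 0.0353) and by 0.19 (adjusted p = 0.0263) in the same comparisons and tables. Among 8 genes of the sister dehydrogenases of 2-oxoglutarate and branched-chain oxoacids with their kinase and phosphatase, 1 was called, the phosphatase Ppm1k. It fell by 0.63 in G4 against G2 (implied standard error 0.14, adjusted p = 0.00111) in the authors' deposited table, where 1.38% of genes tested passed.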

How the data were processed

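Stranded mRNA libraries (KAPA kit, per the labels' protocols) were made from the soleus of 12 mice. Bowtie2 2.1.0, RSEM 1.2.15 and edgeR are named with mm10 and GRCm38, per the submitters' processing notes, with no role or order. Per the file headers, the authors' 4 tables hold for each gene a total (a signal, reads divided by size factors and summed over libraries), p-values, unadjusted and step-up adjusted, and the fold change, both signed (a score) and as log2. Their values were used as deposited, as the planned count test needs values per library. Adjusted p-values were blank for 14458 genes in G4 against G2 and 11245 in G4 against G3.

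The table for G2 against G1 lists 15652 genes, 7 of the 10 among them, with log2 of 0 or below. Pdk1, Pdk2 and Pdp1 were rebuilt from the other 3 tables, whose log2 values close a loop, with the variance built likewise. On 7792 listed genes the log2 differed by at most 1.0e-14. To count calls in G2 against G1, deposited and rebuilt p-values were adjusted together by Benjamini-Hochberg over 15494 genes with a total of at least 100. Interaction p-values were adjusted over the same genes. Intervals are log2 ± the 95% normal bound of the implied standard error. They describe the difference between 2 groups under the authors' fit, and the spread between single mice cannot be read from them. Lengths and coordinates came from GENCODE M21, copies from blastn 2.17.0 (at least 90% identity over 200 bases). Scripts were tested on simulated data.

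Named genes were the 10, genes of the pathway lists called at an adjusted p of 0.05, the rest of the complex and the 3 nearest in pattern. Some endothelial and adipocyte markers were named after their values were seen. Members and lists were chosen with earlier results of these data known.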

Additional observations from a re-analysis of the deposited data

How the results depend on the processing

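The number of the 10 genes called was 0 in all 4 comparisons and the interaction under several alternatives. These were adjustment over all genes or over 9589 with at least 5 RPM, and centring on the median gene. Correction for GC content, transcript length and total reads by splines with 4 degrees of freedom each also gave 0. So did adjustment over genes with a total of at least 100. That was already the main setting for G2 against G1 and the interaction, so it was an alternative in the remaining comparisons only. A 1.5-fold minimum also gave 0, as did a t distribution with 8 degrees of freedom, run for G2 against G1 and the interaction only. Both can only remove calls, so they could not change a count of 0 and are no check on it. The smallest adjusted p under any alternative was 0.302, for Pdp2 in G4 against G2 with the spline correction. The same correction turned the sign of 7 uncalled values near 0: Pdha1 (-0.015), Dlat (-0.0074) and Pdp2 (-0.039) in G3 against G1, Mpc1 in G4 against G2 (-0.025) and in G4 against G3 (-0.019), Dlat in G4 against G3 (0.0023) and Pdhx in the interaction (-0.0015). It also turned the median of the 10 genes in G3 against G1, to -0.015. The cause was not tested. Without Mpc1, Pdhb and Pdha1, an alternative chosen after seeing the data, the median in G4 against G3 was -0.01. No mouse could be left out, and no paired analysis was possible because the tables give no value for a single mouse. Precision is limited by 3 mice per group, with implied standard errors of up to 0.078 in the core genes and 0.24 in the phosphatases.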
